A study of Capra hircus with 9 samples.

Results

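The mRNAs described here rose from the 2-cell to the 8-cell stage in goat embryos made by in vitro fertilization (IVF) and were lower at the same stage in embryos made by somatic cell nuclear transfer (SCNT). They were chosen by measured values. A transcript whose RefSeq accession starts with XM was taken when it had at least 5 FPKM in IVF-8c and when the log2 ratio of FPKM + 0.1 was above 2, that is more than 4-fold, both over IVF-2c and over SCNT-8c. The second of these is called the IVF/SCNT ratio below. FPKM counts the fragments of a transcript relative to its length and to the mapped fragments of the library. The rule found 91 of 29872 transcripts (0.305%), and they are called members below. All 3 levels of each member were used to choose it, so its rise and its deficit are given as a description and were not tested.

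The groups used were IVF-2c (2-cell IVF embryos), IVF-8c (8-cell IVF embryos) and SCNT-8c (8-cell SCNT embryos), with 1 library each from pooled embryos. The donor nuclei of the SCNT embryos came from goat fetal fibroblasts (GFFs), which the study describes as derived from a female fetus while the labels name the ear margin as source, and the labels give no transgene or drug for the embryos. The cDNA was amplified with a low-input SMART-Seq kit before sequencing. The fibroblast libraries of the series were not analysed here, because their gene numbers are not paired with names.

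A fertilized egg first lives on maternal mRNA, and transcription from its own genome starts in earnest at embryonic genome activation, which in the goat is placed around the 8-cell stage. In SCNT the nucleus of a differentiated cell must be reset by the egg's cytoplasm and then take part in the same activation. Genes that stay low in cloned embryos at this time are a known feature of incomplete reprogramming in several mammals. With 1 library per condition, the way the embryos were made and other differences between the libraries cannot be told apart.

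The members went from a median of 0.283 FPKM at IVF-2c (range 0 to 16.4) to 13.2 FPKM at IVF-8c (5.04 to 341.9), and stood at a median of 1.17 FPKM in SCNT-8c (0 to 29.9). In IVF-2c 26 members were listed at 0, and in SCNT-8c 7 were. A listed 0 can be a failed estimate and is not read as absence. Their FPKM summed to 121.9 at IVF-2c, 2549 at IVF-8c and 232.6 at SCNT-8c. Even in IVF-8c they made up only 0.226% of all mRNA FPKM.

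**Figure D1:**
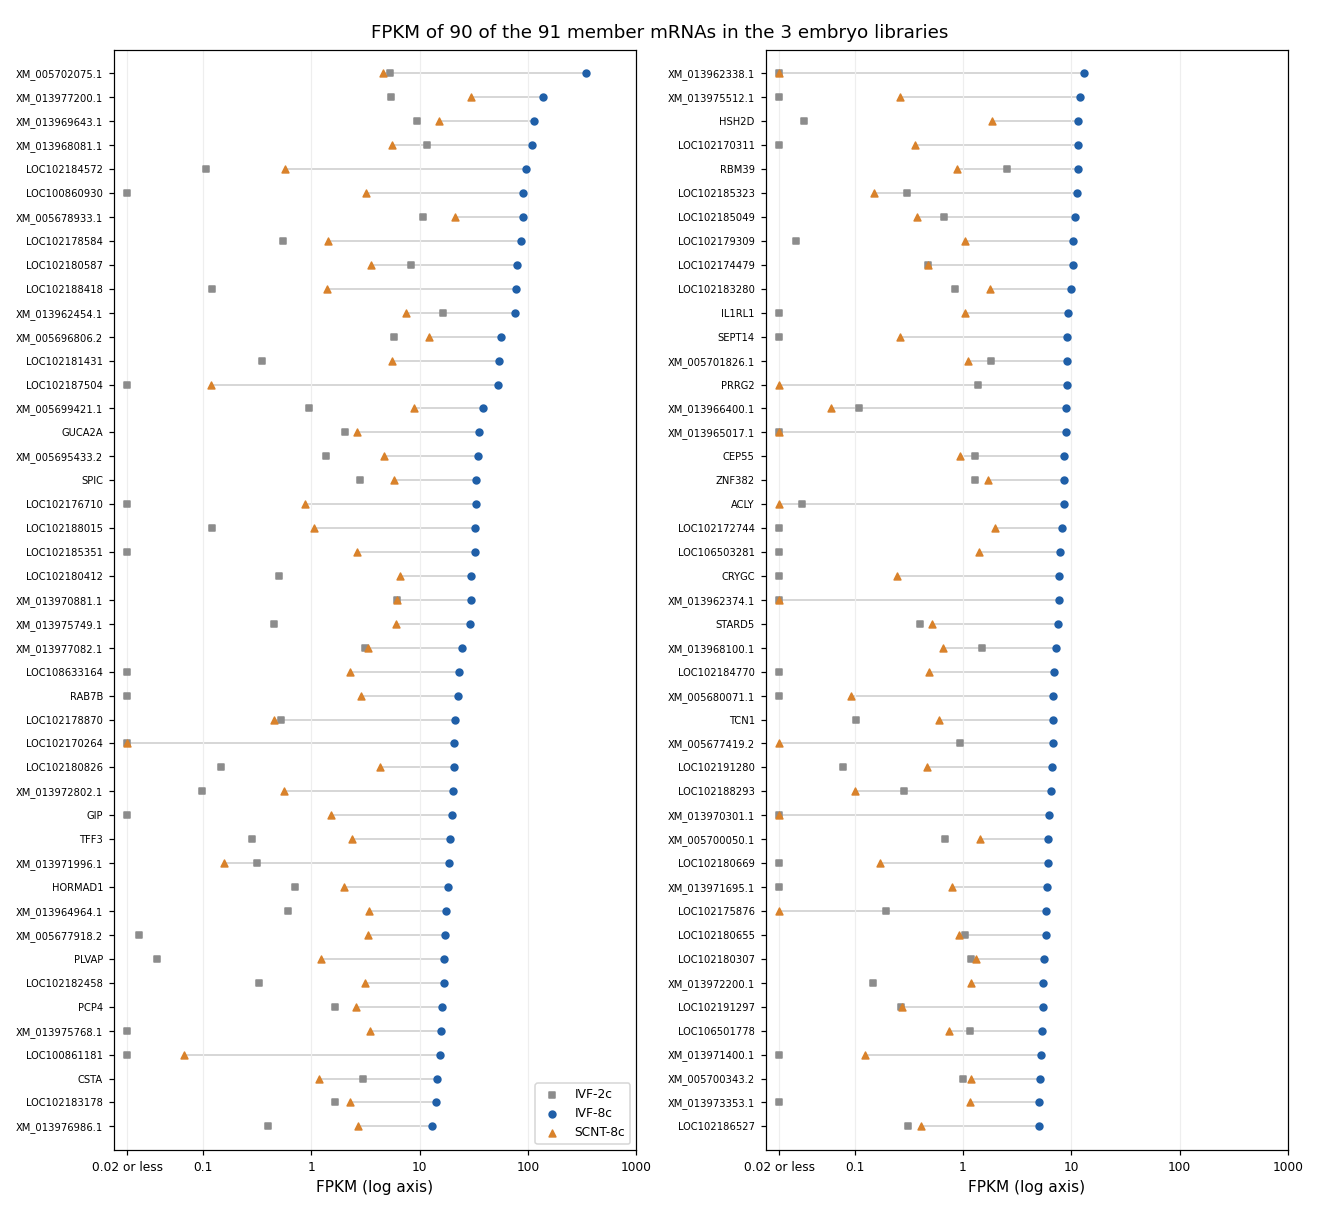
FPKM (log axis) of 90 of the 91 members in IVF-2c (grey squares), IVF-8c (blue circles) and SCNT-8c (orange triangles), ordered by the level in IVF-8c, with values of 0.02 FPKM or less drawn at 0.02. The blue circles run from 5.04 to 341.9 FPKM, and 45 of the 90 SCNT-8c triangles lie, as drawn, within 4-fold of the IVF-2c squares.

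Members were a minority of the mRNAs that rose in the IVF embryos. Of 6869 XM transcripts with at least 5 FPKM in IVF-8c, 843 were more than 4-fold above IVF-2c, and the members were 10.8% of these. Another 570 (67.6%) lay within 2-fold of SCNT-8c. Over the 843 the median IVF/SCNT ratio (log2) was 0.63, with 171 further transcripts above 1 and 11 below -1. The 843 were chosen for a high IVF-8c level, and that choice by itself tilts the ratio towards IVF. The lean is therefore a description only. The opposite pattern, high in SCNT-8c and more than 4-fold above both IVF libraries, held for 20 transcripts.

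**Figure D2:**
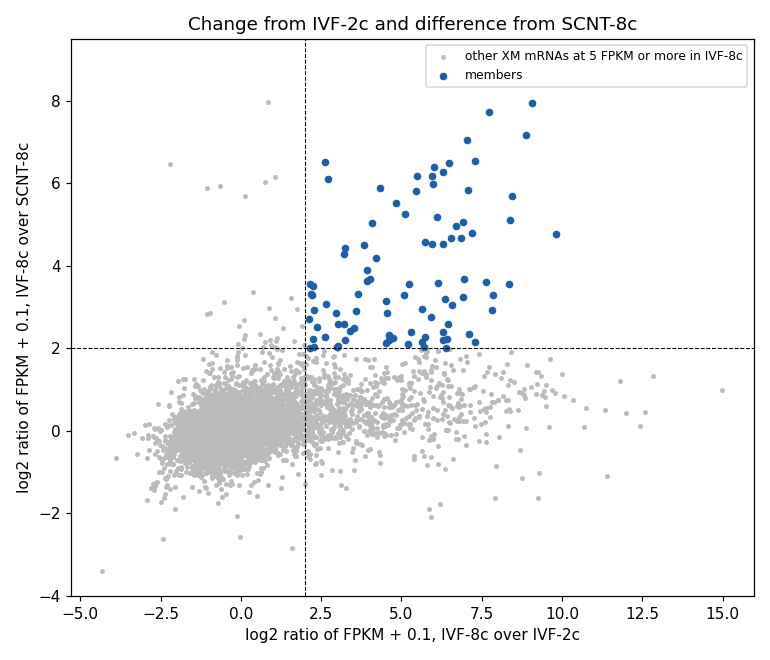
Each point is 1 of 6869 XM transcripts with at least 5 FPKM in IVF-8c, placed by its log2 ratio over IVF-2c (x axis) and by its IVF/SCNT ratio (y axis), with the limits of 2 as dashed lines. The 91 members fill the upper right corner by the rule, and the 843 transcripts right of the vertical line have a median of 0.63 on the y axis.

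The SCNT-8c level of the members was also set beside that of IVF-2c, a ratio that the 2 limits bound but do not fix. SCNT-8c was above IVF-2c in 64 members, below it in 22 and listed at 0 with it in 5. It was more than 4-fold above IVF-2c in 32 of 91 members, against 9.7% of the 6869 transcripts at 5 FPKM and 75.8% of the 843 that rose in IVF-8c. The count of 32 depends on the pseudocount and was 44 with 0.01 and 9 with 1. As a share of the gain from IVF-2c to IVF-8c, SCNT-8c had reached a median of 2.86% in the members (range -18.3% to 24.0%), and 61.0% over the 843. The limit over SCNT-8c caps this share for every member, so a lower median than over the 843 follows from the rule. The 843 also include the members.

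A RefSeq gene of the assembly ARS1.2 could be paired with 57 of the 91 members. Of these, 21 carried a gene symbol and 36 a locus number only (LOC), which is 63.2% of the paired members. Locus numbers made up 24.1% of the paired transcripts among the 843 and 8.92% among the 6869. The rule did not use names, and no test was made of this difference. The 5 members with the highest IVF-8c level had no symbol. XM_005702075.1 had 5.37 FPKM at IVF-2c, 341.9 at IVF-8c and 4.61 at SCNT-8c, which placed SCNT-8c just under the 2-cell level. XM_013977200.1 had 5.44, 136.9 and 29.9 FPKM in the same order and kept the highest SCNT-8c level of all members. XM_013969643.1 stood at 9.42, 113.5 and 15.05 FPKM, and XM_013968081.1 at 11.7, 108.7 and 5.52 FPKM. The fifth, LOC102184572, is described with its neighbours below.

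Of the 21 members with a symbol, 20 are given here by role, a grouping made after their values were seen. The first are secreted proteins. GUCA2A, which encodes the gut peptide guanylin, had 2.04 FPKM at IVF-2c, 35.1 at IVF-8c and 2.66 at SCNT-8c. GIP, an incretin hormone of the small intestine, was listed at 0 in IVF-2c and had 19.9 FPKM at IVF-8c and 1.53 at SCNT-8c. TFF3, a trefoil peptide of mucous epithelia, had 0.282, 19.1 and 2.40 FPKM. In the first of these SCNT-8c was near the 2-cell level, and in the other two it lay between the IVF libraries. TCN1, a vitamin B12 carrier that the naming rule did not pick, had 0.104, 6.74 and 0.598 FPKM.

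Regulators of transcription and RNA followed. SPIC, an Ets family transcription factor of macrophages, had 2.81 FPKM at IVF-2c, 33.6 at IVF-8c and 5.84 at SCNT-8c. ZNF382, a KRAB zinc finger protein, had a member transcript at 1.29, 8.53 and 1.69 FPKM. For RBM39, a splicing factor, the member transcript had 2.52, 11.5 and 0.886 FPKM, with SCNT-8c under the 2-cell value.

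Members with roles at membranes and in signalling were mostly near or at 0 in IVF-2c. RAB7B, a small GTPase of late endosomes, was listed at 0 in IVF-2c and had 22.5 FPKM at IVF-8c and 2.88 at SCNT-8c. PLVAP, a component of endothelial diaphragms, had 0.0378, 16.9 and 1.23 FPKM. HSH2D, a lymphocyte adaptor protein, had 0.0342, 11.6 and 1.85 FPKM. All 3 were detected in SCNT-8c at more than 1 FPKM. IL1RL1, the receptor for interleukin 33, was listed at 0 in IVF-2c and had 9.40 FPKM at IVF-8c and 1.05 at SCNT-8c. PRRG2, a membrane protein with a Gla domain, had a member transcript at 1.38, 9.08 and 0.000166 FPKM, the last of which is close to 0.

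The other named members belong to cell division, metabolism and tissue structure. HORMAD1, a protein of the meiotic chromosome axis, had 0.714 FPKM at IVF-2c, 18.4 at IVF-8c and 2.00 at SCNT-8c. CEP55, which acts at the midbody in the last step of cell division, had a member transcript at 1.29, 8.55 and 0.929 FPKM. SEPT14, a septin, was listed at 0 in IVF-2c and had 9.18 and 0.263 FPKM at the 8-cell stage. In the member transcript of CEP55 SCNT-8c was below IVF-2c, and in that of the meiotic gene HORMAD1 above it. The gene sum of CEP55 was higher in SCNT-8c (13.4 FPKM) than in IVF-2c (4.73 FPKM). ACLY, the enzyme that makes cytosolic acetyl-CoA from citrate, had a member transcript at 0.0328, 8.50 and 0.00233 FPKM. STARD5, a sterol-binding protein, had 0.400, 7.54 and 0.516 FPKM. CSTA, a cysteine protease inhibitor of epidermis, had 2.998, 14.5 and 1.17 FPKM. The enzyme and the inhibitor were both lower in SCNT-8c than in IVF-2c, and the sterol carrier was near its 2-cell level. PCP4, a calmodulin-binding peptide, had 1.64, 16.1 and 2.61 FPKM. CRYGC, a lens crystallin, had 9.38e-07, 7.78 and 0.244 FPKM.

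For 14 member genes more than 1 XM transcript was paired, and summing these changed the picture for some. The 34 members with no paired gene could not be summed. Transcripts of a member gene that were not paired are missing from its sum. With FPKM summed over the transcripts of the gene, 8 genes still passed the limits and 6 did not. The 6 were RBM39, CEP55, PRRG2, ACLY, ZNF382 and LOC102183178.

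ACLY differed most between transcript and gene. Its member XM_005693834.2 was nearly confined to IVF-8c, but XM_005693835.2 had 12.9 FPKM at IVF-2c, 2.18 at IVF-8c and 8.87 at SCNT-8c, and the gene sum was 12.9, 10.7 and 8.87. The sum was thus slightly lower in IVF-8c than in IVF-2c, while the share of the 2 transcripts was reversed between them. RBM39 had 4 transcripts that summed to 34.3, 95.2 and 70.0 FPKM, an IVF/SCNT ratio (log2) of 0.44, against 3.55 for the member alone. Besides the member, XM_005688510.2 of RBM39 also had a low SCNT-8c value, with 3.32, 10.1 and 0.997 FPKM. For PRRG2 the other transcript had 1.35, 13.7 and 7.70 FPKM, and the sum kept a ratio of 1.56. CEP55 summed to 4.73, 22.8 and 13.4 FPKM and ZNF382 to 8.70, 13.96 and 6.93 FPKM. How Cuffdiff divides fragments between overlapping transcripts is an estimate, and for these 6 genes the limits were met by the member transcript and not by the gene sum. HORMAD1, HSH2D, IL1RL1, CRYGC and STARD5 passed as sums as well, with IVF/SCNT ratios of 3.31, 2.64, 3.04, 4.61 and 2.44.

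**Figure D3:**
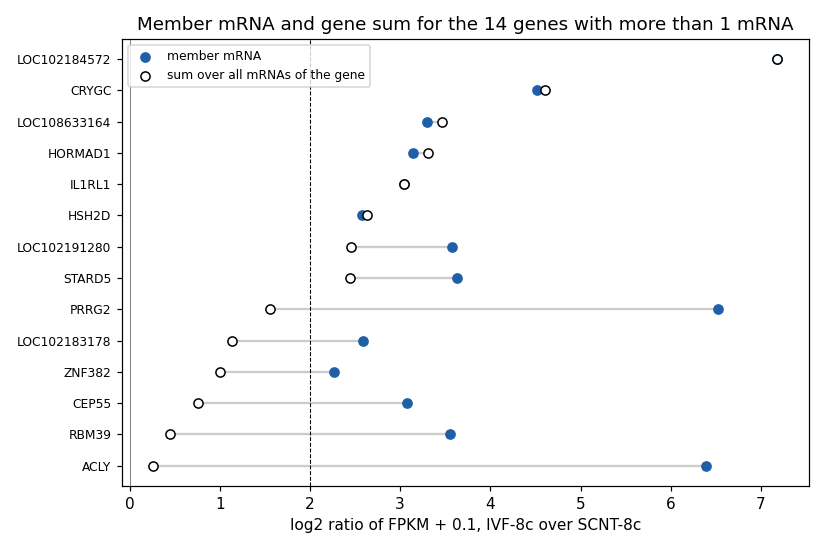
IVF/SCNT ratio (log2) for the member transcript (blue) and for the sum over all paired XM transcripts of the gene (open circles). Shown are the 14 member genes with more than 1 paired transcript, with the limit of 2 as a dashed line. For the 6 genes at the bottom the sum falls left of the limit, down to 0.26 for ACLY.

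Many members with locus numbers had other members as neighbours. Of 56 members placed on a chromosome of ARS1.2, 22 (39.3%) lay in 6 stretches, defined as at least 2 members with at most 15 protein-coding genes between successive ones. A limit of 10 was tried first and gave 19 members in 6 stretches. It was widened to 15 after the gene order had been seen, so that the loci between LRRC38 and C16H1orf158 were not split, and the stretches are a description only. The wider limit also joined the loci beside ZNF165 to those beside HFE and added the stretch of PCP4 and TFF3. With limits of 5 and 20 genes, 18 and 23 members lay in stretches. Loci of such groups can be near-identical copies, between which fragments may have been shared, so the value of a single locus is uncertain. The identity of the loci was not looked up beyond the table.

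The stretch with the most members began beside HFE, the iron regulator, and ended beside ZNF165. In mammals the interval next to HFE is known for the major cluster of replication-dependent histone genes and for butyrophilins, and BTN3A3, BTN2A2 and BTN1A1 lie inside it here. It held 44 protein-coding genes, of which 31 were paired with 37 transcripts, and 10 of these transcripts were members. Genes are called measured below when at least 1 transcript was paired with them by accession. Genes not called measured can still have values under unpaired accessions. LOC102184572 had 0.107 FPKM at IVF-2c, 96.3 at IVF-8c and 0.568 at SCNT-8c. LOC102178584 had 0.543, 87.0 and 1.43 FPKM, and LOC102178870 had 0.520, 21.2 and 0.454 FPKM. In SCNT-8c the first of these was 5.30-fold and the second 2.63-fold above the 2-cell level, and the third was just under it. LOC102180587 already had 8.27 FPKM in IVF-2c, rose to 79.2 and stood at 3.58 in SCNT-8c. LOC102182458 had 0.331, 16.8 and 3.12 FPKM. LOC102185323 and LOC102185049, the first genes of the stretch, had 11.3 and 10.9 FPKM in IVF-8c and 0.150 and 0.380 in SCNT-8c, both under their IVF-2c values of 0.304 and 0.673. The last members, LOC102183280, LOC106501778 and LOC102180307, had between 5.41 and 9.88 FPKM in IVF-8c and between 0.735 and 1.78 in SCNT-8c.

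Loci between these members did not all share the deficit. Of the 9 transcripts of the stretch that were not members and had at least 5 FPKM in IVF-8c, 7 had a higher level in the IVF than in the SCNT embryos at the 8-cell stage, against 51.4% of the 6869. Their median IVF/SCNT ratio (log2) was 1.05, against 0.02 over the 6869. LOC102182181 rose from 0.537 to 389.8 FPKM in IVF and reached 144.9 in SCNT-8c, and LOC102178027 had 80.7, 176.4 and 44.5 FPKM. ABT1, a basal transcription activator in the same interval, had 17.7, 22.01 and 23.0 FPKM and showed no deficit.

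**Figure D4:**
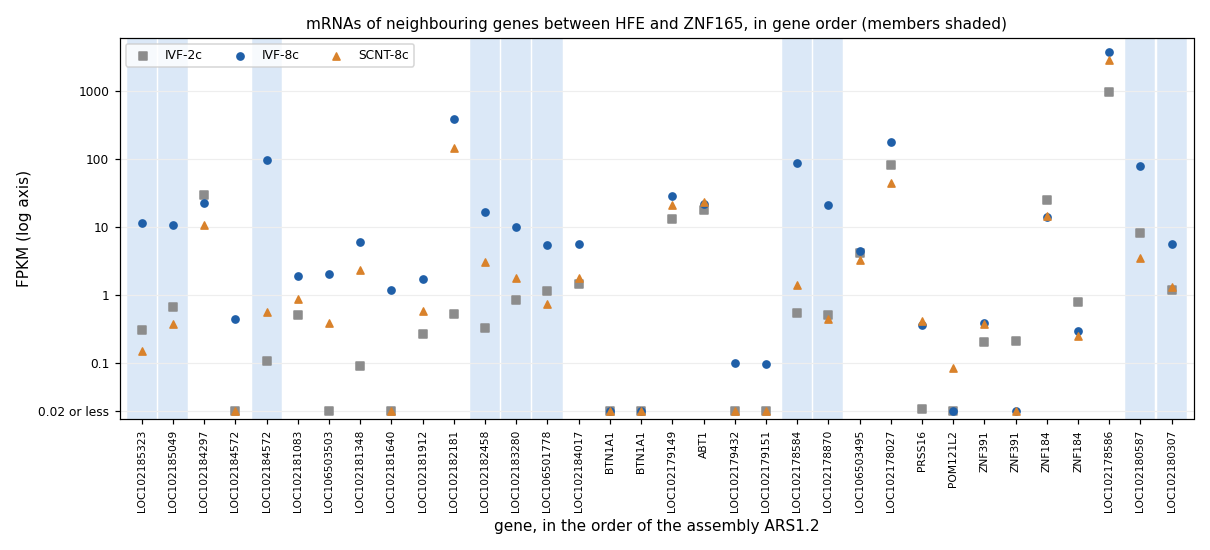
FPKM (log axis) of the transcripts above 0 in any library for genes from HFE to ZNF165, in the gene order of ARS1.2, with members shaded and values of 0.02 or less drawn at 0.02. In the shaded columns IVF-8c (blue) lies well above SCNT-8c (orange), while at ABT1 and ZNF184 the 2 nearly coincide.

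A second stretch lay between LRRC38 and C16H1orf158. In humans this interval is known for the PRAME family, but the goat loci are unnamed in the table. All 10 transcripts measured there had at least 5 FPKM in IVF-8c and more than 4-fold over IVF-2c, and 3 were members. LOC102180412 had 0.498 FPKM at IVF-2c, 29.6 at IVF-8c and 6.54 at SCNT-8c. LOC102179309 had 0.0288, 10.5 and 1.05 FPKM, and LOC102172744 was listed at 0 in IVF-2c and had 8.24 and 1.98 FPKM. The other 7 had a median IVF/SCNT ratio (log2) of 0.59, close to the 0.63 over the 843. Among them LOC102178473 reached 171.5 FPKM at IVF-8c and 117.2 at SCNT-8c, and LOC102180145 reached 76.7 and 71.8 FPKM. All 10, the members included, were thus higher than at the 2-cell stage in both kinds of 8-cell embryo.

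Keratin-associated genes flanked another group. Between KRTAP11-1 and CLDN8, with KAP8 and KRTAP15-1 inside, 3 of 6 measured transcripts were members. LOC100860930 was listed at 0 in IVF-2c and had 90.3 FPKM at IVF-8c and 3.20 at SCNT-8c. LOC102181431 had 0.347, 53.7 and 5.57 FPKM, and LOC100861181 was listed at 0 in IVF-2c and had 15.4 and 0.0674 FPKM. LOC102180888 beside them was no member, with 0.263, 57.2 and 26.8 FPKM. KAP8 itself had 0.110 FPKM in IVF-2c and was listed at 0 in both 8-cell libraries. Elsewhere, LOC102170264, between KRT40 and KRTAP3-1, was listed at 0 in IVF-2c and SCNT-8c and had 21.02 FPKM in IVF-8c. LOC102184770, between KPRP and SMCP, was listed at 0 in IVF-2c and had 6.89 FPKM at IVF-8c and 0.487 at SCNT-8c.

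Of the remaining stretches, 2 consisted of a pair of loci each. Between UCN3 and AKR1E2, an aldo-keto reductase gene, LOC102187504 was listed at 0 in IVF-2c and had 53.5 FPKM at IVF-8c and 0.118 at SCNT-8c, which gave the highest IVF/SCNT ratio of all members (7.94 on the log2 scale). Its neighbour LOC102188418 had 0.121, 77.1 and 1.40 FPKM. Between TRIM68 and the globin gene HBBC, LOC102176710 was listed at 0 in IVF-2c and had 33.5 and 0.878 FPKM at the 8-cell stage, and LOC102175876 had 0.195, 5.83 and 0 FPKM. The last stretch joined PCP4 and TFF3 across 15 genes. Of these TMPRSS2 alone was paired with transcripts, at 0.268 FPKM or less in each transcript and library. The others can have values under unpaired accessions.

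**Figure D5:**
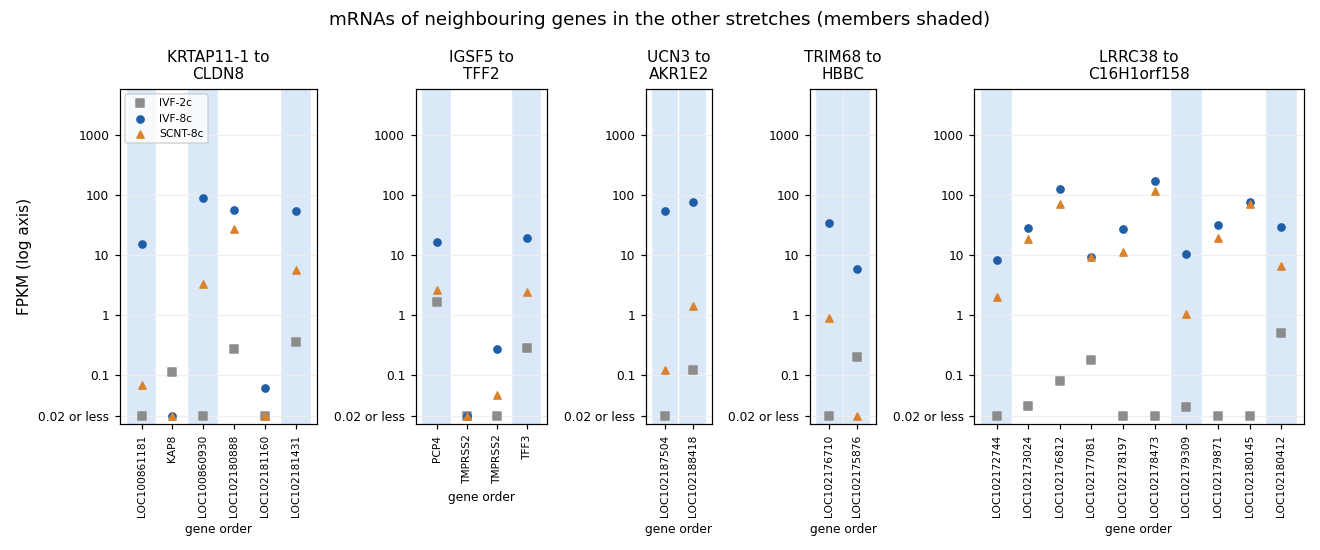
FPKM (log axis) of the measured transcripts in the other 5 stretches, in gene order, with members shaded and values of 0.02 or less drawn at 0.02. Between LRRC38 and C16H1orf158 both 8-cell libraries lie above IVF-2c at each locus, and at the pairs beside AKR1E2 and HBBC SCNT-8c stays at 1.40 FPKM or less.

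Single members had other well-known neighbours. LOC102191280 lay between DLK1 and RTL1, both genes of an imprinted domain in mammals, and had 0.0774 FPKM at IVF-2c, 6.58 at IVF-8c and 0.462 at SCNT-8c. Its second transcript had 0.250, 0.862 and 0.812 FPKM, and the gene sum still passed the limits with an IVF/SCNT ratio of 2.46. No imprint or allele was measured. LOC102188293 lay in a cluster of lectin-like receptor genes between CLEC12A and KLRF2, and had 0.283, 6.44 and 0.1003 FPKM. The nearest measured genes on each side of the placed members that were not members themselves gave 95 transcripts. For each gene the transcript highest in IVF-8c was taken. Of these, 37 had at least 5 FPKM in IVF-8c, and 11 of the 37 (29.7%) were more than 4-fold above IVF-2c, against 12.3% of the 6869. The 37 had a median IVF/SCNT ratio (log2) of 0.38, against 0.02 over the 6869. Taking the highest transcript of a gene favours a high IVF-8c level, and the 6869 were not chosen in this way. Some of the 37 are loci of the stretches described above.

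Members were set against 17 lists of genes for development and reprogramming, of which 355 of 842 genes were measured. Lists were matched by symbol, so only the 21 members with a symbol could be found on one. None of these was on a list, and for the other members the lists cannot tell. Of 302 list transcripts at 5 FPKM or more in IVF-8c, 39 had risen more than 4-fold from IVF-2c, where 12.3% of the 6869 had. Only 1 of the 302 (0.331%) was more than 4-fold above SCNT-8c, against 1.81% of the 6869. That transcript was XM_013970657.1 of the splicing gene SF3B1, with 10.03, 13.1 and 1.19 FPKM. Of the list of genome activation genes 11 of 50 were measured. Of their 7 transcripts at 5 FPKM or more in IVF-8c, 5 rose, none of them past 4-fold over SCNT-8c. ARGFX, a homeobox gene of early embryos, had 0.106 FPKM at IVF-2c, 842.8 at IVF-8c and 628.0 at SCNT-8c. KLF17 was listed at 0 in IVF-2c and had 87.6 and 46.2 FPKM. DPPA2, which acts early in genome activation, had 0.654, 34.7 and 10.4 FPKM. ARGFX, KLF17 and DPPA2 were more than 4-fold above IVF-2c in SCNT-8c as well. Of this list 4 transcripts passed that limit in SCNT-8c, against 5 in IVF-8c. It was passed by 75.8% of the 843 and by 32 of 91 members, whose SCNT-8c level the rule caps. EIF1AX, a translation initiation factor on the same list, had 47.0, 230.5 and 96.9 FPKM and did not pass 4-fold in SCNT-8c. TM4SF1, a tetraspanin-like membrane protein, had 0.214, 210.1 and 115.8 FPKM in its main transcript. ZSCAN4 was not matched in the table.

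No member with a symbol was on the other lists either. Transcripts more than 4-fold above IVF-2c were counted among those at 5 FPKM or more in IVF-8c, against 12.3% of the 6869. They numbered 9 of 54 for RNA splicing (38 of 75 genes measured) and 7 of 47 for ribosome biogenesis (52 of 79). Translation factors had 4 of 27 (29 of 52) and general transcription 3 of 45 (45 of 77). The cell cycle had 3 of 32 (33 of 64) and the proteasome with chaperones 3 of 36 (38 of 61). Lineage and pluripotency genes had 2 of 2 (9 of 30) and histone acetylation and remodelling 2 of 11 (11 of 56). Apoptosis with stress had 2 of 8 (16 of 45). The Wnt pathway had 1 of 9 (21 of 60), and cumulus and granulosa cells had 1 of 4 (7 of 20). Oocyte genes had none of 14 (14 of 30) and fibroblast matrix none of 3 (15 of 25). Histone and DNA methylation enzymes had none of 5 (13 of 51), and retrotransposon control none of 4 (8 of 25). No gene of the histone list (57 genes) was matched by symbol, so the loci beside HFE could not be set against it.

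Several members lay close to a limit. For the level in IVF-8c, the nearest members were LOC102186527 with 5.04 FPKM, XM_013973353.1 with 5.07 and XM_005700343.2 with 5.15, and the nearest transcripts outside were C1QL1 with 4.97, BEND6 with 4.90 and XM_005680524.2 with 4.88. For the log2 ratio over IVF-2c, LOC106501778 (2.12), LOC102180307 (2.14) and RBM39 (2.14) were just inside and MFSD2A (1.97), LOC102172226 (1.90) and LOC108633254 (1.75) just outside. For the IVF/SCNT ratio, LOC102172744 (2.00), LOC102180307 (2.02) and XM_005700050.1 (2.03) were just inside and PDP2 (1.98), PSMG3 (1.98) and DNAJC12 (1.96) just outside.

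The stage labels were set beside markers. Oocyte markers (6 of 10 measured) summed to 4225 FPKM at IVF-2c, 1567 at IVF-8c and 1631 at SCNT-8c, so these maternal mRNAs were at similar summed levels in both 8-cell libraries. Fibroblast markers (8 of 10) summed to 146.7, 84.4 and 97.1 FPKM, with 3 listed at 0 in IVF-2c and none in the others. The fall of this sum came from DCN (116.6, 56.3 and 57.4 FPKM) and FN1 (24.4, 10.75 and 14.6 FPKM), while the other 6 were higher in both 8-cell libraries than in IVF-2c, LUM for example with 3.56, 9.53 and 15.7 FPKM. Cumulus markers (5 of 10) summed to 19.1, 47.5 and 72.6 FPKM, with 2, 1 and 2 listed at 0. Most of this rise came from TNFAIP6 (2.22, 26.6 and 51.2 FPKM), while HAS2 had 16.7, 20.7 and 21.3 FPKM. CYP19A1 was lower in both 8-cell libraries than in IVF-2c, and FSHR and INHA were at or near 0. Sperm markers (3 of 8) summed to 0.0170, 4.36 and 3.26 FPKM, with 2 listed at 0 in IVF-2c. Between the 8-cell libraries TNP1 was higher in IVF-8c (3.72 against 1.02 FPKM) and AKAP4 in SCNT-8c (2.07 against 0.469 FPKM). The part of other cells in the members' values was not tested. A transcript present in fewer of the cells and a lower level of it in each cell cannot be told apart in pooled embryos. Under the same rule 1361 of 36240 lncRNAs (3.76%) also qualified, lncRNA3720 among them.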

How the data were processed

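The authors aligned reads with TopHat2 2.0.12 and Bowtie2 2.2.3 and estimated transcript levels with Cufflinks 2.1.1 and Cuffdiff, per the labels and the submitters' processing notes. The values are FPKM per mRNA transcript as the authors deposited them, with 1 column for each of the 3 embryo libraries and 0 columns without a sample. The depth is unknown, since FPKM estimates do not fall on whole fragments, and the genome build is not given in the sources used here.

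The members and gene lists were chosen with earlier results of these data known. Log2 ratios of FPKM + 0.1 were calculated in pandas 2.3.3 and numpy 2.4.6 under Python 3.11.15, and plots were drawn with matplotlib 3.10.9. No test was possible with a single library for each condition. The code that applies the rule was tested on simulated data without noise. Accessions were compared without version with a RefSeq table of ARS1.2 (28911 genes), which paired 13245 of 29872 XM transcripts (44.3%). It was used for names and gene order only. Promoter motifs were not analysed here.

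Genes were named by rule: among members with a symbol (no LOC number) the 20 highest in IVF-8c, the 10 with the largest ratio over SCNT-8c and those on a list, among the others the 5 highest, then 3 on each side of every limit, other transcripts of named genes, and EIF1AX, ZSCAN4 and TM4SF1. TCN1, the loci of stretches, their neighbours, and the list genes given with values were named after their values were seen. The values of 1 member are not reported here. Alternatives were other pseudocounts, minimums, limits and scalings, gene sums, and added afterwards other limits for stretches.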

Additional observations from a re-analysis of the deposited data

Results flagged for a closer look

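In 5 of the 21 members with a symbol the 8-cell libraries moved in opposite directions from IVF-2c, with a rise in IVF-8c and a fall in SCNT-8c. SCNT-8c was below IVF-2c in 22 of all 91 members, in 22 of the 843 and in 3883 of the 6869. In the ACLY member both values were close to 0, at 0.0328 FPKM in IVF-2c and 0.00233 in SCNT-8c. SCNT-8c minus IVF-2c was -1.83 FPKM for CSTA, -1.64 for RBM39, -1.38 for PRRG2, -0.359 for CEP55 and -0.0305 for ACLY. The difference was not tested, since each condition had 1 library. For RBM39, PRRG2, CEP55 and ACLY the values are those of 1 transcript among several of the gene. The gene sums of RBM39, PRRG2 and CEP55 were higher in SCNT-8c than in IVF-2c, with 70.0 against 34.3, 7.70 against 2.73 and 13.4 against 4.73 FPKM. That of ACLY was lower, with 8.87 against 12.9 FPKM.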

How the results depend on the processing

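The number of members was 91. It moved to 282 and 55 with a minimum of 1 and 10 FPKM in IVF-8c, and to 332 and 48 with log2 limits of 1 and 3. It stayed between 63 and 112 under the other alternatives, which were pseudocounts of 0.01 (93) and 1 (71), median-ratio scaling (112), scaling to 1 mRNA sum (89), NM accessions included (93) and transcripts above 0 in all libraries (63). The count of members more than 4-fold higher in SCNT-8c than in IVF-2c went from 32 to 9 with a pseudocount of 1, and was 44 with 0.01 and 33 with median-ratio scaling. The median IVF/SCNT ratio (log2) of the members went from 3.32 to 2.60 with a pseudocount of 1 and was 3.38 with scaling. A larger pseudocount lowers the ratios of low transcripts by construction. Summed per gene, 51 of 57 genes passed. Only the 14 genes with more than 1 paired transcript could change, and 8 of these passed and 6 did not. Other limits for stretches, chosen after seeing the data, gave 18 to 23 members in place of 22. No paired analysis was possible because each condition had 1 library. The spread between embryos is unknown for the same reason, and the depth of the libraries is not known either.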
